A study of Mus musculus with 14 samples.

Results

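The T and B lymphocyte genes described here are Cd3d, Cd3e, Cd3g, Cd4, Cd8a, Nkg7, Cd79a, Cd79b and Ms4a1. They were found by their symbols, and all 9 were among the 23282 genes of the count table. QuantSeq 3′-mRNA sequencing was performed on epididymal white adipose tissue (eWAT), the visceral fat depot beside the epididymis of male mice. The 14 libraries came from wild-type male C57BL/6J mice, 4 weeks old at purchase, that received either a standard diet (control) or the Western diet D12079B (WD) for 20 weeks. No transgene, deletion or drug treatment distinguished the groups. Batch 1 held 4 control libraries (replicates 1 to 4) and 5 WD libraries (replicates 1 to 5), and batch 2 held 5 control libraries (replicates 5 to 9). Every WD library belonged to batch 1, so in any comparison with the batch 2 controls diet and batch cannot be told apart. The labels number the libraries without naming the animals, and the p-values measure the spread between libraries.

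A T cell recognizes antigen through the T cell receptor, whose own chains have short cytoplasmic tails and signal through the associated CD3 chains. A B cell recognizes antigen through membrane immunoglobulin, which signals through the paired chains Cd79a and Cd79b. In visceral fat of lean animals, resident lymphocytes include regulatory T cells and innate-like B cells, and obesity is known to change the lymphocyte populations of this depot. Cd3d, Cd3e and Cd3g encode the delta, epsilon and gamma chains of CD3. Cd4 and Cd8a encode the coreceptors that bind MHC class II and class I. Nkg7 encodes a granule protein of natural killer cells and cytotoxic T cells. Ms4a1 encodes CD20, a membrane protein of B cells.

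The CD3 chains and the CD79 pair share a signaling element, the immunoreceptor tyrosine-based activation motif (ITAM), whose tyrosines are phosphorylated when the receptor is engaged. Its coding stretch is shown for all 5 genes because it is the sequence feature that the T cell and B cell receptor genes have in common. The motif was searched in translated coding sequences of the GENCODE M21 annotation (GRCm38) as a tyrosine, 2 residues of any kind, a leucine or isoleucine, 6 to 8 residues of any kind, and the same 4 residues again. The sequences run 5′ to 3′ on the coding strand, and the codons of the 2 tyrosines and of the 2 leucines or isoleucines are in capitals.
Cd3d: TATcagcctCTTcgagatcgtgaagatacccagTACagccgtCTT
Cd3e: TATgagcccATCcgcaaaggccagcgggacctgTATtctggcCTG
Cd3g: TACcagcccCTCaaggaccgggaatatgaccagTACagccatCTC
Cd79a: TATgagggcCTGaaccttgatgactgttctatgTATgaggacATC
Cd79b: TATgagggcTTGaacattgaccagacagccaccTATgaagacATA

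Each of the 5 genes held the motif once, in 45 coding bases with 7 residues between its leading and trailing parts. In every one an intron interrupts the 45 bases, so that the stretch lies in 2 exons. The outer coordinates were chr9:44986095-44986311 on the plus strand for Cd3d, chr9:44999549-45000440 on the minus strand for Cd3e and chr9:44970735-44971268 on the minus strand for Cd3g. They were chr7:24901296-24901469 on the plus strand for Cd79a and chr11:106311867-106312012 on the minus strand for Cd79b. Cd3d and Cd3g were identical at 32 of the 45 bases, and Cd79a and Cd79b at 31. Cd3e was identical to Cd3d at 21 bases and to Cd3g at 21. Between a CD3 chain and a CD79 chain, 13 to 23 bases were identical, with the 23 between Cd3e and Cd79b. For Cd3e, identity within the CD3 chains was thus not higher than with Cd79b. Cd4, Cd8a, Nkg7 and Ms4a1 held no match. The same search found a match in 626 of 21812 mouse protein-coding genes (2.87%), and a match is a description of the letters only.

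The deposited table places the genes on mm10, and all 9 are protein-coding. The 3 CD3 genes form a cluster on chromosome 9, with Cd3g at chr9:44969572-44980431, Cd3d at chr9:44981786-44987052 and Cd3e at chr9:44998743-45009590. Cd3g and Cd3d lie 1355 bases apart and are transcribed away from each other. The other genes are Cd4 at chr6:124864693-124888209, Cd8a at chr6:71373427-71379171, Cd79a at chr7:24897511-24902197, Nkg7 at chr7:43437138-43438246, Cd79b at chr11:106311341-106314529 and Ms4a1 at chr19:11250603-11266151. Antisense genes are annotated across Ms4a1 and Cd3e, and the methods do not state whether strand was used in counting, so reads of those partners could have been counted with them. A further gene, Gm48720, overlaps Cd3e on the same strand, and its reads could have been counted with Cd3e even if strand was used.

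Total counts ranged from 10278970 to 13712254 per library. A limit of detection was set at 3 counts, which equalled 0.219 to 0.292 CPM (counts scaled to the normalized library size), and it covers counting error only. Control replicate 1 of batch 1 stood apart through 12 genes of the epididymis, which summed to 186980 CPM there and to at most 51.8 CPM in any other library. Control replicate 4 of batch 1 had counts for 7999 genes, against 10903 to 13780 in the other 13 libraries. The adipocyte genes summed to 28707 CPM or more in all libraries but control replicate 1, where they summed to 5237 CPM. The fitted differences in batch 1 are therefore also given without control replicates 1 and 4.

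The 9 genes were at the edge of detection. They had 2720 counts together in all 14 libraries, and 74 of their values (58.7%) were 0. Of the 52 values above 0, 5 were from 1 to 3 counts and 6 were above 100. Zeros made up 26 of 36 values in the batch 1 controls, 29 of 45 in the batch 2 controls and 19 of 45 in the WD libraries. WD replicate 3 was the only library with a count for every one of the 9 genes. It held 1482 of the 2132 counts of the WD group (69.5%), and it had the highest CPM of all 14 libraries for 7 of the 9 genes. The exceptions were Cd3g, highest in control replicate 9, and Nkg7, highest in WD replicate 4. Without WD replicate 3, 19 of 36 WD values were 0. In bulk tissue, fewer cells of a type and less RNA per cell cannot be told apart.

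**Figure D1:**
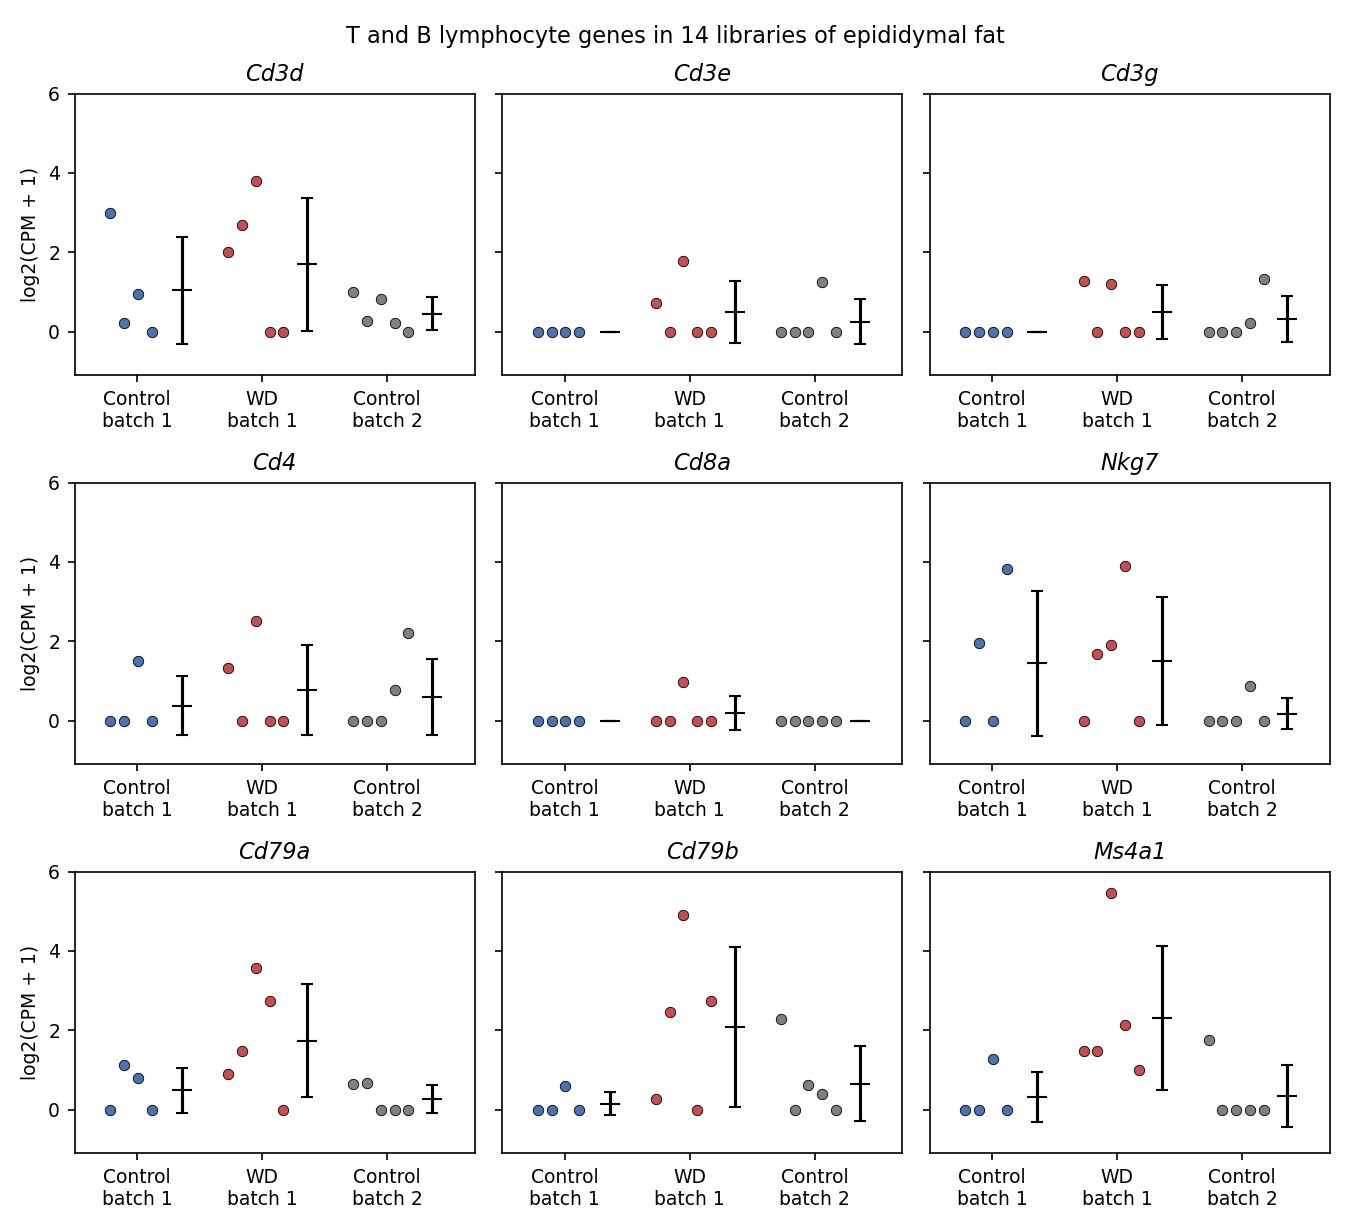
Log2(CPM + 1) of the 9 genes in each library, as deposited. Points are libraries in the order of their replicate numbers, and the bar beside them is the mean ± SD of 4 or 5 libraries; most points sit at 0, and WD replicate 3 reaches 5.47 for Ms4a1 and 4.91 for Cd79b.

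Among the B cell genes, Ms4a1 was the one with a count in every WD library. Its counts were 25, 17, 593, 42 and 12 in WD replicates 1 to 5. In the batch 1 controls they were 0, 0, 17 and 0 in replicates 1 to 4. In the batch 2 controls they were 33, 0, 0, 0 and 0 in replicates 5 to 9. Thus 5 of 5 WD libraries and 2 of 9 control libraries held Ms4a1 reads, and the groups overlapped in both batches because of control replicates 3 and 5. The mean level was 10.2 ± 18.5 CPM (SD, n = 5) in the WD group. It was 0.354 ± 0.707 CPM (n = 4) in controls of batch 1 and 0.471 ± 1.05 CPM (n = 5) in those of batch 2. The ratio of mean CPM to the batch 1 controls was 28.9, and it was 5.59 without WD replicate 3, where the remaining WD libraries averaged 1.98 ± 0.988 CPM (SD, n = 4).

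Cd79a had counts of 12, 17, 149, 71 and 0 in WD replicates 1 to 5. It had 0, 14, 9 and 0 in the batch 1 controls and 8, 6, 0, 0 and 0 in the batch 2 controls. The highest control library, with 14 counts, lay above WD replicates 1 and 5. The means were 3.83 ± 4.49 CPM (SD, n = 5) in the WD group, 0.482 ± 0.584 CPM (n = 4) in controls of batch 1 and 0.230 ± 0.315 CPM (n = 5) in those of batch 2. The ratio to the batch 1 controls was 7.95, and it was 4.30 without WD replicate 3.

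Cd79b, the partner chain of Cd79a, had counts of 3, 43, 398, 0 and 68 in WD replicates 1 to 5. It had 0, 0, 6 and 0 in the batch 1 controls and 54, 0, 7, 4 and 0 in the batch 2 controls. The 54 counts of control replicate 5 exceeded those of 3 of the 5 WD libraries. In level, control replicate 5 at 3.86 CPM lay above WD replicates 1 and 4 but below WD replicate 2 at 4.50 CPM. The means were 7.88 ± 12.1 CPM (SD, n = 5) in the WD group, 0.125 ± 0.250 CPM (n = 4) in controls of batch 1 and 0.939 ± 1.65 CPM (n = 5) in those of batch 2. Without WD replicate 3, which held 398 of the 512 WD counts, the WD mean was 2.60 ± 2.92 CPM (SD, n = 4). Although the products of Cd79a and Cd79b work as a pair, their reads were found together in 5 libraries, those of Cd79a alone in 3, those of Cd79b alone in 3 and neither in 3.

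Summed over Cd79a, Cd79b and Ms4a1, the WD libraries held 2.83, 8.06, 83.1, 9.03 and 6.69 CPM in replicates 1 to 5. The batch 1 controls held 0, 1.18, 2.66 and 0 CPM, and the batch 2 controls held 6.78, 0.578, 0.529, 0.307 and 0 CPM. All 5 WD libraries lay above the 4 batch 1 controls in this sum, while control replicate 5 of batch 2 lay within the WD range. The sum was chosen with these values known and was not tested.

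Among the T cell genes, Cd3d was found most often. Its counts were 43, 52, 175, 0 and 0 in WD replicates 1 to 5. They were 66, 2, 11 and 0 in the batch 1 controls and 14, 2, 10, 2 and 0 in the batch 2 controls. The groups overlapped throughout, with 2 WD libraries at 0 and the library with epididymis genes, control replicate 1, above WD replicates 1 and 2. The means were 4.25 ± 5.28 CPM (SD, n = 5) in the WD group, 1.99 ± 3.29 CPM (n = 4) in controls of batch 1 and 0.420 ± 0.433 CPM (n = 5) in those of batch 2. The ratio to the batch 1 controls was 2.13, and it was 1.06 without WD replicate 3.

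Cd3e and Cd3g were at 0 in all 4 batch 1 controls. Cd3e had 9 counts in WD replicate 1, 33 in WD replicate 3, 18 in control replicate 8 and 0 in the other 11 libraries. Its mean in the WD group, 0.608 ± 1.04 CPM (SD, n = 5), was about 2.39 times the limit of 3 counts per library in the batch 1 controls. The limit is scaled to total counts and the mean to normalized library sizes, so such ratios are approximate. Cd3g had 20 counts in WD replicate 1, 18 in WD replicate 3, 2 in control replicate 8, 15 in control replicate 9 and 0 elsewhere. Its mean of 0.545 ± 0.747 CPM (SD, n = 5) was about 2.14 times that limit, and about 1.39 times without WD replicate 3. Without that library the mean of Cd3e fell to 0.159 CPM, under the limit, and no fold is given. Reads of all 3 chains were found together in WD replicates 1 and 3 and control replicate 8, a single chain was found in 8 libraries and no chain in 3.

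The coreceptor genes were sparser. Cd4, which macrophages can also express, had 21 counts in WD replicate 1, 65 in WD replicate 3, 22 in control replicate 3, 9 in control replicate 8, 36 in control replicate 9 and 0 in the other 9 libraries. The mean was 1.24 ± 2.06 CPM (SD, n = 5) in the WD group, 0.458 ± 0.915 CPM (n = 4) in controls of batch 1 and 0.863 ± 1.57 CPM (n = 5) in those of batch 2. Without WD replicate 3 the WD mean was 0.371 CPM, below both control means. Cd8a had 13 counts in WD replicate 3 and 0 in the other 13 libraries, where a level below the limit of 3 counts was not detectable at this depth.

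Nkg7 followed another pattern. Its counts were 0, 21, 38, 174 and 0 in WD replicates 1 to 5. They were 0, 34, 0 and 176 in the batch 1 controls and 0, 0, 0, 11 and 0 in the batch 2 controls. The highest values of the control and WD groups of batch 1 were nearly equal, 13.2 CPM in control replicate 4 and 13.9 CPM in WD replicate 4. The means were 3.77 ± 5.80 CPM (SD, n = 5) in the WD group, 4.01 ± 6.25 CPM (n = 4) in controls of batch 1 and 0.169 ± 0.377 CPM (n = 5) in those of batch 2. Of the 210 Nkg7 counts in the batch 1 controls, 176 came from control replicate 4, the library with the fewest genes detected. Neither that library nor WD replicate 4 held a count of a CD3 chain, Cd4 or Cd8a.

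**Figure D2:**
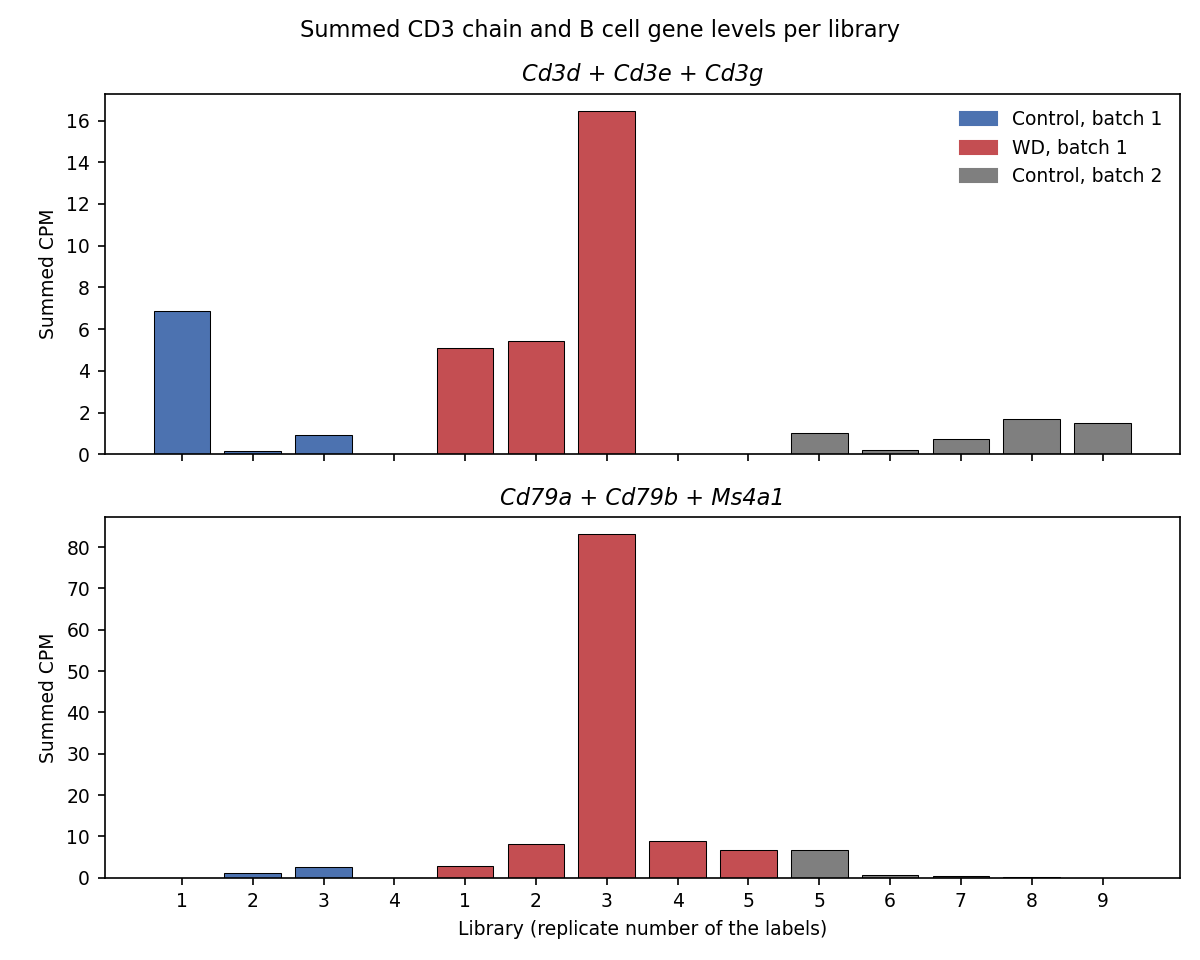
Summed CPM of the CD3 chains (upper bars) and of Cd79a, Cd79b and Ms4a1 (lower bars) in each of the 14 libraries, both axes from 0. WD replicate 3 is highest in both, at 16.5 and 83.1 CPM, whereas control replicate 1 reaches 6.88 CPM for the CD3 chains and 0 for the B cell genes.

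Libraries high in one sum were not always high in the other. WD replicates 4 and 5 held 9.03 and 6.69 CPM of the B cell genes and 0 of the CD3 chains. Control replicate 1 held 6.88 CPM of the CD3 chains, all from Cd3d, and 0 of the B cell genes. Over the 14 libraries the log2 sums had a Pearson correlation of 0.415 and a Spearman correlation of 0.0776, and without WD replicate 3 the Pearson correlation was -0.0634. These are descriptions of libraries of 2 batches, in which most of the counts are near the limit of detection.

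The diets were compared within batch 1 by edgeR's quasi-likelihood test across 12157 genes. At a false discovery rate (FDR) of 0.05, 0 genes were called (0%), and 628 had an unadjusted p under 0.05. DESeq2 called 114 genes and limma-voom 0. Of the lymphocyte genes, 4 of 9 passed the filter on low counts, namely Cd3d, Cd79a, Ms4a1 and Nkg7, and a gene could pass through its WD libraries alone. Ms4a1 did so, with at least 12 counts in every WD library and reads in 1 batch 1 control. For Cd79a, the 12, 17, 149 and 71 counts of WD replicates 1 to 4 were enough to pass. The tests of Ms4a1 and Cd79a are therefore not independent of their high WD counts. With 0 of these 4 genes called, Ms4a1 was the only one with an unadjusted p under 0.05. Genes higher in WD at that p made up 3.35% of all genes tested.

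Ms4a1 was higher in WD by 4.82 ± 2.15 (log2 fold change ± SE) with an unadjusted p of 0.0434 and an FDR of 0.947. The change was 2.44 ± 2.14 without WD replicate 3, with an edgeR FDR of 1.00, and 3.85 ± 2.09 without control replicates 1 and 4, with an edgeR FDR of 0.633. Cd79a differed by 2.98 ± 2.14 with an FDR of 1.00, Cd3d by 1.06 ± 2.12 with an FDR of 1.00 and Nkg7 by -0.05 ± 2.16 with an FDR of 1.00, all from edgeR. Each of these 3 differences was smaller than 1.5 times its SE, and none can be told from 0 with these libraries. Cd3d moved with single libraries, to 0.03 ± 2.30 without WD replicate 3 and 3.54 ± 2.66 without control replicate 1, which held 66 of the 79 Cd3d counts of the batch 1 controls. Without control replicates 1 and 4, Cd3d differed by 2.97 ± 2.65, Cd79a by 2.00 ± 2.25, Nkg7 by 1.40 ± 2.62, Cd79b by 4.94 ± 2.62 and Cd4 by 0.46 ± 3.04, and 0 of these genes had an edgeR FDR under 0.05. Cd79b passed the filter there through its WD libraries alone, so its value is not independent of their counts. Cd3g also passed the filter there, but the remaining batch 1 controls held none of its reads and its fitted value is not given.

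Without the filter on low counts all 9 genes could be fitted in batch 1, and edgeR called 0 of 16985 genes, with 1615 at an unadjusted p under 0.05. Cd79b then differed by 5.88 ± 2.52 with an unadjusted p of 0.0347 and an FDR of 0.442, and Ms4a1 by 4.83 ± 2.17 with a p of 0.0422 and the same FDR. Cd4 differed by 1.44 ± 2.91 with an edgeR FDR of 0.967. For Cd3e, Cd3g and Cd8a, which were at 0 in every batch 1 control, the fitted change depends on the prior count and is not given.

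The same libraries were compared gene by gene on log2(CPM + 1) with a two-sided exact permutation test over all splits of the 4 and 5 libraries, whose smallest p is 0.00794. Ms4a1 differed by 2.00 with an exact p of 0.0397 and an adjusted p of 0.463 over all genes tested. The exact p was 0.0536 to 0.125 with a control left out, 0.0571 without WD replicate 1, 2, 3 or 4, and 0.0286 without WD replicate 5. Cd79b differed by 1.94 with an exact p of 0.119, or 1.23 without WD replicate 3, and Cd79a by 1.26 with an exact p of 0.151. Cd3d differed by 0.70 with an exact p of 0.540, and the other 5 genes had an exact p of at least 0.444. An unadjusted p under 0.05 in this test was found for 10.1% of the 12157 genes. All 9 genes overlapped between the diets, and the WD libraries lay above every batch 1 control for 3.18% of the genes tested.

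**Figure D3:**
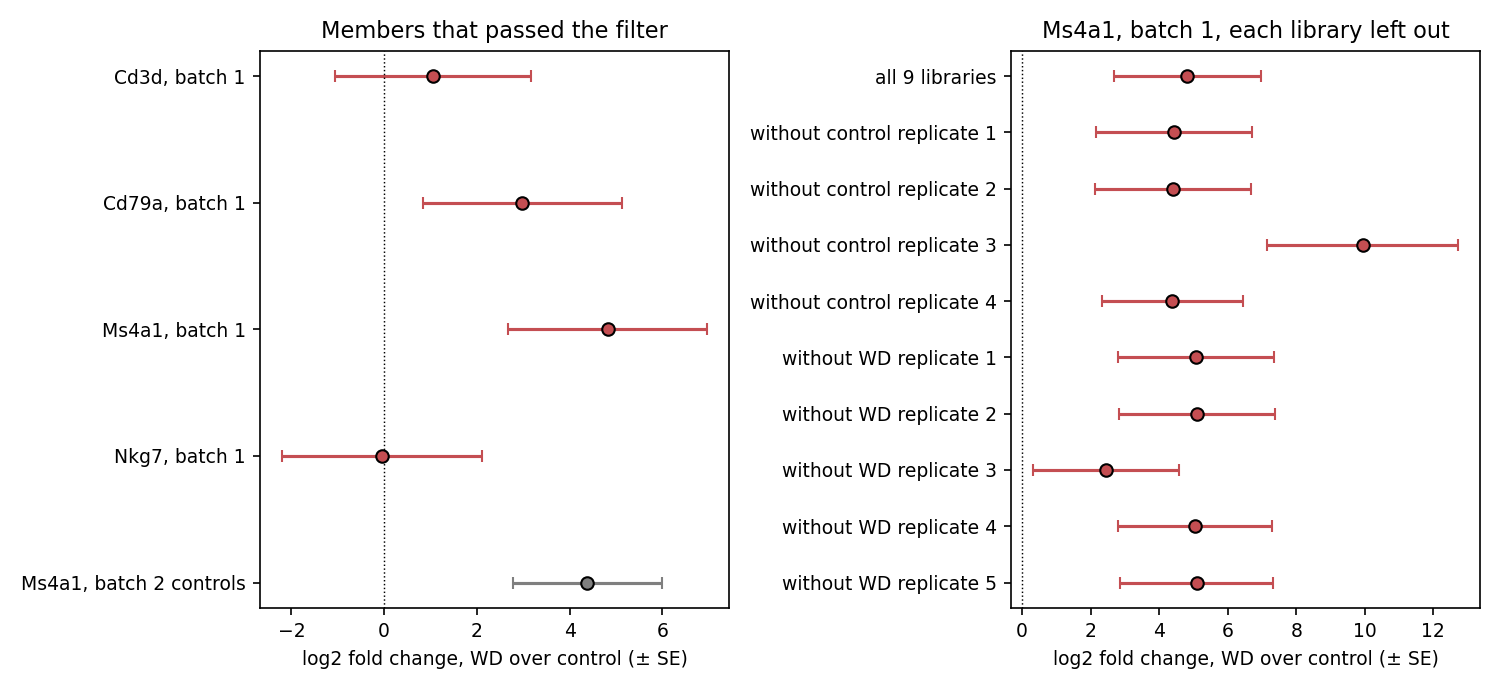
Log2 fold change ± SE (edgeR) of WD over control for the genes that passed the filter (left), and of Ms4a1 in batch 1 with each library left out (right). The Ms4a1 change runs from 2.44 without WD replicate 3 to 9.95 without control replicate 3, the only batch 1 control with Ms4a1 reads, where the fitted value depends on the prior count.

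Against the batch 2 controls, from which WD differs in batch as well, edgeR called 773 of 12070 genes at an FDR of 0.05 (6.4%). Ms4a1 was the only lymphocyte gene that passed the filter, and it was not called, with a difference of 4.38 ± 1.61 and an FDR of 0.139 (unadjusted p = 0.0152). Its WD libraries, each with at least 12 counts, were enough to pass the filter here too, so this test is not independent of those counts. Genes higher in WD at an unadjusted p under 0.05 made up 9.83% of those tested. Without control replicate 5 the batch 2 controls held no Ms4a1 read and the edgeR FDR was 0.0150, whereas without WD replicate 3 the difference was 2.04 ± 1.91 with an FDR of 0.723. The batch 2 controls compared with the batch 1 controls gave 0 of 12106 genes at that FDR (0%) with 895 at an unadjusted p under 0.05, and DESeq2 gave 111 and limma-voom 0. None of the 9 genes passed the filter there.

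When all 9 controls were set against the 5 WD libraries with no batch term, the 4 genes that passed the filter were all higher in WD, and 0 had an FDR under 0.05 in edgeR. Ms4a1 passed through its 5 WD libraries alone and Cd79a mostly through WD libraries, so their direction is not independent of the filter. The median log2 fold change of all genes tested was -0.04. Ms4a1 differed by 4.57 ± 1.62 (unadjusted p = 0.0109, FDR 0.340) and Cd79a by 3.45 ± 1.57 (unadjusted p = 0.0408, FDR 0.597). Genes higher in WD at an unadjusted p under 0.05 made up 4.48% of the 12653 tested. Without WD replicate 3, a setting chosen after the values were seen, Ms4a1 differed by 2.21 ± 1.77 with an edgeR FDR of 1.00. With batch as a term the Ms4a1 difference was 4.81 ± 2.35 with an edgeR FDR of 0.594. These comparisons share the WD libraries, so their values are not independent of each other.

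Genes that act beside the CD3 chains were read from a list of 20 T cell receptor and signaling genes, 17 of which were analysed here. In batch 1, 4 passed the filter, 3 were higher and 1 lower in WD, and 0 had an unadjusted p under 0.05. Against the batch 2 controls, 4 passed, 3 were higher, 1 was lower and 0 were called. Lck, the kinase that phosphorylates the ITAMs of CD3, had 62 counts in WD replicate 3, 1 in WD replicate 1, and 3, 4 and 10 in control replicates 5, 7 and 8. It was at 0 in the other 9 libraries. The 17 genes summed to 17.4 to 38.1 CPM in the WD libraries, 4.74 to 88.1 CPM in the batch 1 controls and 10.02 to 14.4 CPM in the batch 2 controls. Of 14 T cell subset and activation genes, 6 passed in each comparison of WD with controls, 3 higher and 3 lower, and 0 were called. The T cell receptor constant genes were not analysed here.

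Of 17 cytotoxic and natural killer genes, the setting in which Nkg7 is known, 2 passed the filter in batch 1 and 4 against the batch 2 controls, and 0 were called in either. Gzma, which encodes granzyme A, a protease of cytotoxic granules, had 14 counts in WD replicate 1, 34 in WD replicate 5, and 43, 16 and 19 in control replicates 6, 8 and 9. None of the 4 libraries with the most Nkg7 counts had a Gzma read. The list summed to 260 CPM in control replicate 1, the library with epididymis genes, and to 42.7 CPM or less in the other libraries. In control replicate 1 only 1 of the 17 genes had a count, so that sum does not describe the list as a whole.

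A list of 21 B cell receptor and signaling genes had 16 genes analysed here. In batch 1, 8 passed the filter, 7 were higher in WD, 2 had an unadjusted p under 0.05 and 0 were called by edgeR. Both genes under that p, Cr2 and Cd22, are named because there were only 2 and were picked after their values were seen. Both passed the filter through their WD libraries alone, so their tests are not independent of their high WD counts. Over all genes tested, 3.35% were higher in WD at that p. Cr2 encodes the complement receptor CD21 and was at 0 in every batch 1 control, but it had 11 to 44 counts in 4 of the 5 batch 2 controls. Cd22, which encodes an inhibitory coreceptor of B cells, had 18, 78, 91, 1 and 100 counts in the WD libraries, 1 count in 1 batch 1 control, and 21 and 1 counts in 2 batch 2 controls.

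Against the batch 2 controls, 6 genes of the B cell list passed the filter, all 6 were higher in WD and 1 was called. This was Blnk, which encodes an adaptor downstream of the B cell receptor and is also expressed by macrophages. Its counts were 645, 577, 777, 699 and 612 in WD replicates 1 to 5, and 78, 38, 53, 106 and 40 in the batch 2 controls. The difference was 3.41 ± 0.31 with an edgeR FDR of 9.78e-06. In the batch 1 controls the counts were 147, 0, 161 and 775, and the difference there was 1.34 ± 1.00 with an edgeR FDR of 1.00. Control replicate 4, with 775 Blnk counts, held none of the 3 B cell genes above. Blnk alone supplied a mean of 53.9 of the 102 CPM to which the list summed in the WD group.

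Plasma cells, the antibody-secreting stage of B cells, were represented by 3 of 8 listed genes, since the immunoglobulin constant genes were not analysed here. Jchain, which encodes the joining chain of secreted immunoglobulin and is named after its values were seen, had 485, 46, 4726, 822 and 105 counts in WD replicates 1 to 5. It had 0, 0, 339 and 37 in the batch 1 controls and 435, 21, 88, 56 and 16 in the batch 2 controls. WD replicate 3, the library with the most Cd79a, Cd79b and Ms4a1 reads, was again the highest, and control replicates 3 and 5, the only controls with Ms4a1 reads, were the highest of their groups. Jchain was not called, with an FDR of 0.969 in batch 1 and 0.0689 against the batch 2 controls (edgeR).

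**Figure D4:**
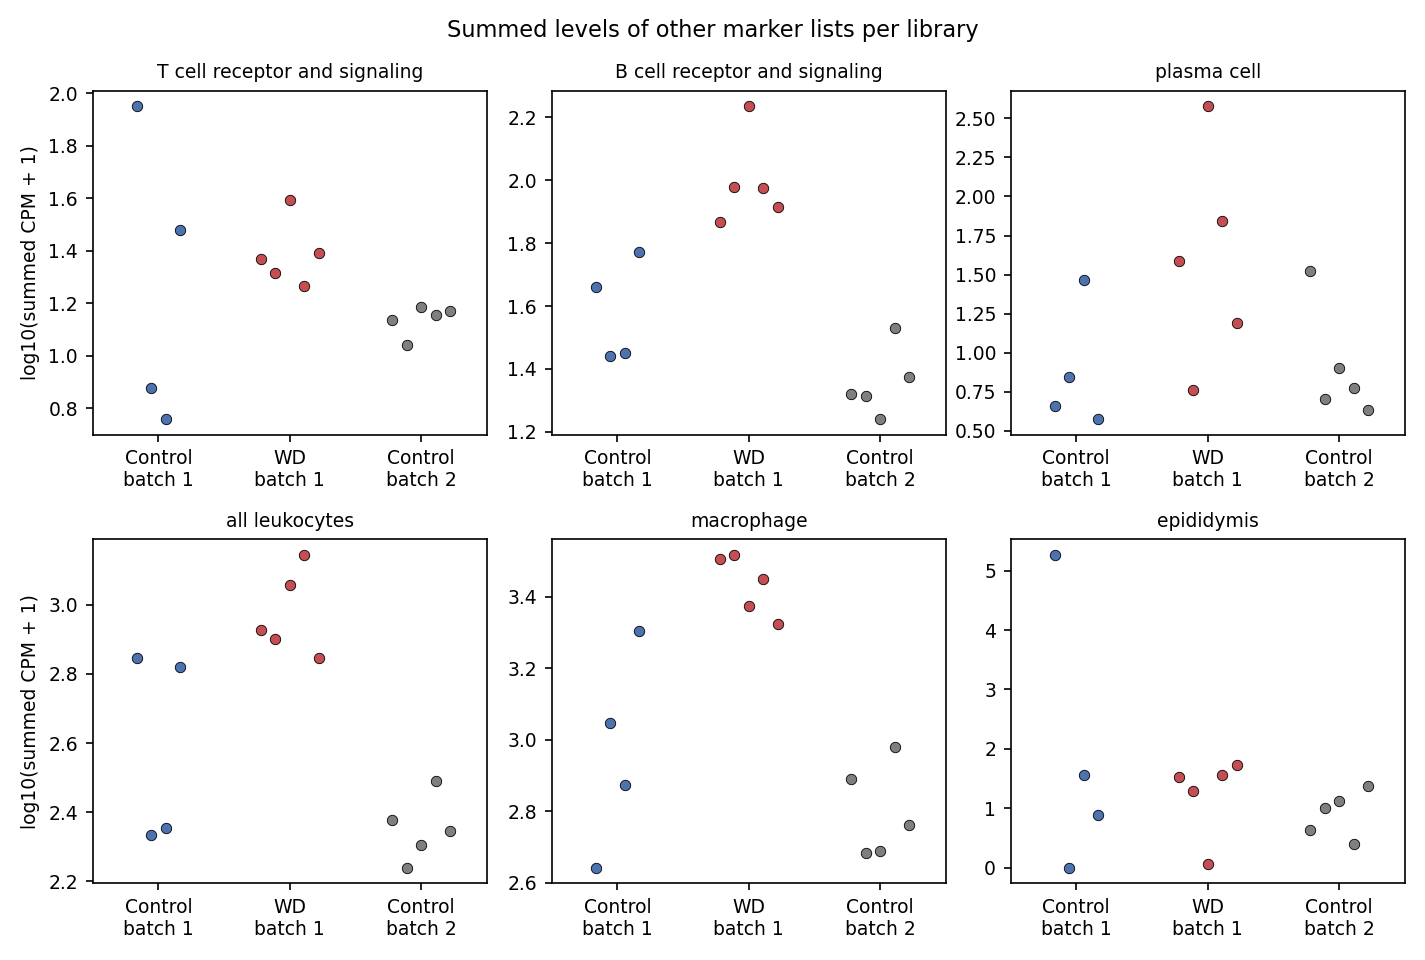
Log10(summed CPM + 1) of 6 marker lists in each library, by group; the axes differ between panels and do not start at 0. The plasma cell list peaks in WD replicate 3 at 377 CPM, the epididymis list in control replicate 1, and the leukocyte and macrophage lists lie above the batch 2 controls in all 5 WD libraries.

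Markers of other leukocytes were also compared. Of 11 genes shared by leukocytes, 10 were higher in WD in batch 1, 6 with an unadjusted p under 0.05 and 0 called, and against the batch 2 controls 7 of 10 were called, all higher. Ptprc, which encodes the leukocyte antigen CD45, had 745 to 2610 counts in the WD libraries, 168 to 1497 in the batch 1 controls and 412 to 666 in the batch 2 controls. WD replicates 3 and 4 had nearly the same Ptprc counts, 2513 and 2610, with 1482 and 287 counts of the 9 lymphocyte genes. Of 14 macrophage genes, 13 passed in batch 1 and all 13 were higher in WD, 9 with an unadjusted p under 0.05 and 0 called, while 11 of 13 were called against the batch 2 controls. Adgre1, which encodes the macrophage protein F4/80, had 2096 to 5663 counts in the WD libraries, with 3407 in replicate 3, and 157 to 2299 in the batch 1 controls. In WD replicate 3 the macrophage list summed to 2359 CPM, within the range of 2111 to 3290 CPM of the WD group. The part of these cells in the lymphocyte values was not tested.

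Of 10 chemokine and survival factor genes of lymphoid cells, 6 passed the filter in batch 1 and 9 against the batch 2 controls, and 0 were called in either. The list summed to 65.9 to 181 CPM in the WD libraries, highest in replicate 3, and to 31.9 to 129 CPM in the batch 1 controls. Of 6 dendritic cell genes 3 passed in batch 1 and 5 against the batch 2 controls, with 0 called. The 5 genes of red blood cells summed to 7259 CPM in WD replicate 3, within the 1852 to 10629 CPM of the other libraries.

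The genes whose pattern was most like that of the CD3 sum were sought among 13224 genes with a mean of at least 1 CPM, by the Pearson correlation of log2(CPM + 1) over the 14 libraries. They were Psd4 (0.866), Ly6d (0.866), Hist2h4 (0.855), Ncapg (0.823) and Shroom2 (0.822). Without WD replicate 3 the correlations of these 5 were 0.759 to 0.847. For the sum of Cd79a, Cd79b and Ms4a1 the 5 genes were Hist1h2af (0.911), Hist1h1e (0.858), Hist1h2an (0.856), H2-Q4 (0.847) and Hbegf (0.835), and 0.740 to 0.881 without WD replicate 3. These correlations are descriptions, and all 14 points share the batches and the sparse counts described above.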

How the data were processed

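RNA of epididymal fat was measured in 14 libraries by QuantSeq 3′-mRNA sequencing, and they were grouped by diet and batch from the labels. The authors aligned single-end reads by Bowtie2 and deposited raw counts per gene, made with bedtools from both unique and multiple alignments. The submitters' processing notes name mm10. The authors also deposited log2 values, which are the TMM-normalized CPM of edgeR with 1 added. The methods mention no molecular identifiers.

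CPM levels were obtained from the deposited log2 values by reversing the logarithm and subtracting the added 1. For the permutation test, CPM was computed from the counts with TMM factors of the batch 1 libraries, or of all 14 libraries where these were compared. Counts were tested with edgeR 4.0.16 (quasi-likelihood, TMM, filterByExpr with a minimum count of 10) on all genes, with DESeq2 1.42.0 and limma 3.58.1 as alternatives, in R 4.3.3. An adjusted p that DESeq2 gives as missing stayed missing. Single genes were compared by exact permutation on log2(CPM + 1) in Python 3.11.15 with scipy 1.17.1, adjusted over the genes passing the filter. The scripts were tested on simulated data.

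The 9 genes, the other marker lists and the rule for named genes were chosen with earlier results of these data known. The rule names the 9 genes, Ptprc, Adgre1, Lck, Gzma and other list genes with an FDR under 0.05 (at most 4 per list), and the 5 genes most like each sum. A further item under the rule is not reported here. The remaining called leukocyte and macrophage genes are given as counts. The lists of red blood cell, dendritic cell, adipocyte and epididymis genes served as markers of other cells. Of the adipocyte list, 5 of 7 genes were called against the batch 2 controls, 1 higher and 4 lower in WD, and 0 in batch 1. Of the epididymis list, 2 genes passed in batch 1 and 1 against the batch 2 controls, with 0 called.

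The alternatives were upper-quartile factors, DESeq2, limma-voom, no filter on low counts, each library left out in turn, all 14 libraries (with batch as a term, and without), a replicate block, control replicates 1 and 4 left out, and for single genes a pseudocount of 0.1 and library totals alone. Pairs of libraries with the same number in batch 1 had correlations of their deviations of 0.0266 to 0.101, and only 1 of 4 exceeded 0.1, so the numbers were taken as names.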

Additional observations from a re-analysis of the deposited data

Results flagged for a closer look

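A Dixon test of the log2(CPM + 1) values asked whether the highest or lowest library of a group lay far from the others. It marked 10 of the 23 groups of values that were not all equal. Chance would mark about 1 in 20 if the values were normally distributed, which these sparse values are not, so the number marked cannot be set against that rate. In 7 of the 10 all other libraries of the group were at 0, and such a group is always marked.

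In the WD group, replicate 3 was marked for Ms4a1 at 5.467, with the other 4 libraries between 1.003 and 2.123, and for Cd8a at 0.962 with the others at 0. In the batch 1 controls, replicate 3 was marked for Cd4 at 1.501, for Cd79b at 0.584 and for Ms4a1 at 1.272, with all others at 0. In the batch 2 controls, replicate 5 was marked for Cd79b at 2.28 and for Ms4a1 at 1.747. Replicate 8 was marked there for Cd3e at 1.251 and for Nkg7 at 0.882, and replicate 9 for Cd3g at 1.328.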

How the results depend on the processing

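Of 284 values recomputed under the alternatives, 238 kept their direction and their side of the threshold, or stayed within 1.5 times for a count. The number of genes with an FDR under 0.05 in batch 1, 0 in edgeR, was 114 with DESeq2, 67 with all 14 libraries, 1 with a batch term, 108 without control replicates 1 and 4, 28 with all 14 libraries less WD replicate 3 (chosen after seeing the data), and 0 to 48 with each library left out. Between the controls it was 111 with DESeq2, 28 without control replicates 1 and 4, and 0 to 2 with a library left out. In these fits none of the 9 genes had an FDR under 0.05, and the DESeq2 value of Ms4a1 was missing. Against the batch 2 controls, 0 to 1 was called with a library left out, the 1 being Ms4a1 without control replicate 5 (9.95, a value that depends on the prior count, since the other batch 2 controls are at 0).

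By the permutation test in batch 1, 1 of the 9 genes had an unadjusted p under 0.05, as did 10.1% of all genes tested. The number was 0 to 1 with a library left out and 3 with all 14 libraries. The 14 libraries include the batch 2 controls, and the share of all genes was not computed for them. Nkg7 in batch 1 turned from -0.05 to 0.26 with limma-voom, 1.00 with all 14 libraries, 1.10 with these less WD replicate 3, 1.40 without control replicates 1 and 4, and from -1.62 to 1.97 with each library left out, lowest without WD replicate 4 and highest without control replicate 4. On log2(CPM + 1) it was 0.07 and ran from -0.52 without WD replicate 4 to 0.86 without control replicate 4, and Cd4 was 0.40 and ran from -0.048 without WD replicate 3 to 0.77 without control replicate 3. The cause of these changes was not tested.

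With the replicate block the Nkg7 difference was 1.21 and 0 genes were called; the block changed no call, and the numbers are names only. Limma-voom moved the median of all genes to 0.42 from 0.03 in batch 1, above its Nkg7 value, and to 0.51 between the controls. Depth limits the values of Cd3e, Cd3g, Cd4, Cd8a and Nkg7, whose counts are 3 or fewer in most libraries.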
